A study of Mus musculus with 6 samples.

Results

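The genes described here encode the enzymes that build nucleotides, feed them with one-carbon units and serine, and start polyamine synthesis. They were chosen by name, as 31 symbols of the deposited gene count table, and each symbol matched exactly 1 of its 56748 genes. Bulk RNA sequencing was done on 6 libraries of mouse leukemia cells carrying MLL-AF9, an oncogenic fusion protein that transforms myeloid progenitors. Of these, 3 libraries (numbers 25, 27 and 29) carry the genotype label Rbm5 WT and 3 (numbers 31, 32 and 40) the label Rbm5 KO, that is, knockout of the gene for RBM5, an RNA-binding protein of pre-mRNA splicing. The fusion was common to both groups. The labels give bone marrow as the tissue and whole bone marrow as the cell type, the entry for the cell line reads MLL-AF9, and one protocol text speaks of cultured cells. They give no age, sex, strain or Cre driver, and do not say whether a library is 1 animal.

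Purine and pyrimidine rings are assembled step by step on or toward phosphoribosyl pyrophosphate (PRPP), and proliferating cells rely on this route to make RNA and DNA. Serine is the main donor of one-carbon units, which folate carries through a mitochondrial and a cytosolic arm into purines and thymidylate. Many of these enzymes are textbook targets of the transcription factor MYC, which the title of the series names beside RBM5, and rapidly dividing leukemia cells depend on them. Several are drug targets, among them dihydroorotate dehydrogenase and IMP dehydrogenase.

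Facts of the libraries as a whole bear on each result. Totals were 26359299 to 31807588 counts per library. The level of Rbm5 did not fall with the knockout label: it was 205.0 ± 28.1 CPM in wild type against 260.4 ± 13.1 CPM in knockout (SD, n = 3 each, CPM being counts scaled to library size by TMM, edgeR adjusted p = 0.107), so the words knockout and wild type stand for labels only. The Y-linked gene Ddx3y had 0 counts in the wild-type libraries and 2645 to 3311 in the knockout libraries, so sex and label cannot be told apart. The X-linked gene Xist was at 1625, 1363 and 1269 CPM in wild-type libraries 25, 27 and 29. In knockout libraries 31, 32 and 40 it was at 13.0, 192.2 and 32.5 CPM (edgeR adjusted p = 0.0701). Library 32 held 5027 counts of Xist beside 2674 of Ddx3y, and the cause was not tested. Markers of myeloid progenitors and MLL leukemia were present in both groups, 11 of 11, and moved both ways. By edgeR, Hoxa9 fell from 253.0 ± 93.5 to 110.3 ± 15.2 CPM, Ctsg fell from 571.7 ± 93.0 to 370.3 ± 28.3 CPM and Prtn3 rose from 629.4 ± 119.8 to 1080 ± 258.1 CPM, while 8 did not pass. The log2 fold change was below 0 in 8 of the 11, with a median of -0.43, and the part of these shifts in the results was not tested. None of the 3 passed without knockout library 31, 32 or 40. Mature neutrophil markers were higher in the knockout mean in 17 of 17 genes (12 passed by edgeR), with a summed level of 1227 to 4040 CPM in wild type against 13435 to 30529 CPM in knockout, and none of the 17 was at 0 in either group. Monocyte and macrophage markers summed to 1115 to 1612 CPM in wild type against 3031 to 5072 CPM in knockout. In bulk RNA, fewer cells of a type and less RNA per cell cannot be told apart.

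To show what promoters of these genes hold, windows from 250 bases before to 50 after each RefSeq start (GRCm38.p6) were searched on both strands. Of the 31 genes, 28 had at least 1 window, and Dhodh, Pfas and Aldh1l2 were not matched. The E-box CACGTG, which MYC with its partner MAX is known to bind, occurred in windows of 5 genes (17.9%), against 8.09% of all 27025 genes with a window. These were Paics, Atic, Impdh2, Nme1 and Tyms. The E2F-type letters TTGGCGC or TTCCCGC occurred in 8 genes (28.6%, against 7.79% of all), which were Prps1, Prps2, Ppat, Impdh2, Rrm1, Phgdh, Shmt1 and Mthfd1. The composite site of the stress factor ATF4, TGATGNAA, occurred in 1 gene, Prps1 (3.57%, against 4.51% of all). A match of letters is a description and not a bound site. The background of all genes with a window was not matched to these genes in expression or base composition. The sequences that follow are stretches of 60 bases that hold a match and lie almost wholly outside annotated exons, with the E-box or E2F letters in capitals, and the 250 bases before the start of Gart, which fell and whose window held none of these motifs.
Atic, chr1:71557096-71557155, plus strand: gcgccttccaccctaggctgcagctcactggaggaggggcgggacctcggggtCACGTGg
Nme1, chr11:93968026-93968085, minus strand: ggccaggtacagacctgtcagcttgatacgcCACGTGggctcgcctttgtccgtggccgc
Tyms, chr5:30073654-30073713, minus strand: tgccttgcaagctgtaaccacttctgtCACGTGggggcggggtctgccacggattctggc
Rrm1, chr7:102441602-102441661, plus strand: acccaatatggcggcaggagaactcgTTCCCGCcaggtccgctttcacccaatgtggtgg
Gart, chr16:91646973-91647222, minus strand: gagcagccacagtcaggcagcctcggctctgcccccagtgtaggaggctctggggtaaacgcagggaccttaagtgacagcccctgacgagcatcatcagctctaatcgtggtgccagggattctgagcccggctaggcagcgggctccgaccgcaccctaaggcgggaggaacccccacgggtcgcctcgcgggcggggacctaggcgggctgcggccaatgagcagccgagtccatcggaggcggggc
The Tyms and Rrm1 stretches lie in no annotated gene, the Nme1 stretch lies within Nme1 and the read-through gene Gm20390 but outside their exons, and 6 bases of the Atic stretch are in its first exon, by GENCODE M21. In some windows a short stretch just after the RefSeq start matched no transcript of its gene in that annotation. Among these were the windows of Gart, of Mthfd1 and of the printed Nme1 stretch.

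Nucleotide and one-carbon genes stood mostly a little lower in the libraries labelled knockout, and most of these differences did not pass the test. Of 30 tested genes (Aldh1l2 was removed by the filter on low counts), 26 had a log2 fold change below 0, where 51.2% of all 15963 tested genes did. Past an edgeR adjusted p of 0.05, 2 fell (Gart and Dhodh) and 0 rose, while 28 did not pass. DESeq2 and limma-voom called 0 higher as well. In the same comparison 8.57% of all tested genes were called, 3.12% lower and 5.45% higher, and the 2 calls are 6.67% of the 30 genes. The median log2 fold change was -0.23, against -0.01 over all tested genes. An unadjusted edgeR p under 0.05 was reached by 10 genes, all lower (33.3%, against 12.4% of all tested genes that were lower). In 11 genes the knockout libraries lay wholly below the wild-type libraries (36.7%, against 16.5% of all), and in 0 genes wholly above (against 17.2%).

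**Figure D1:**
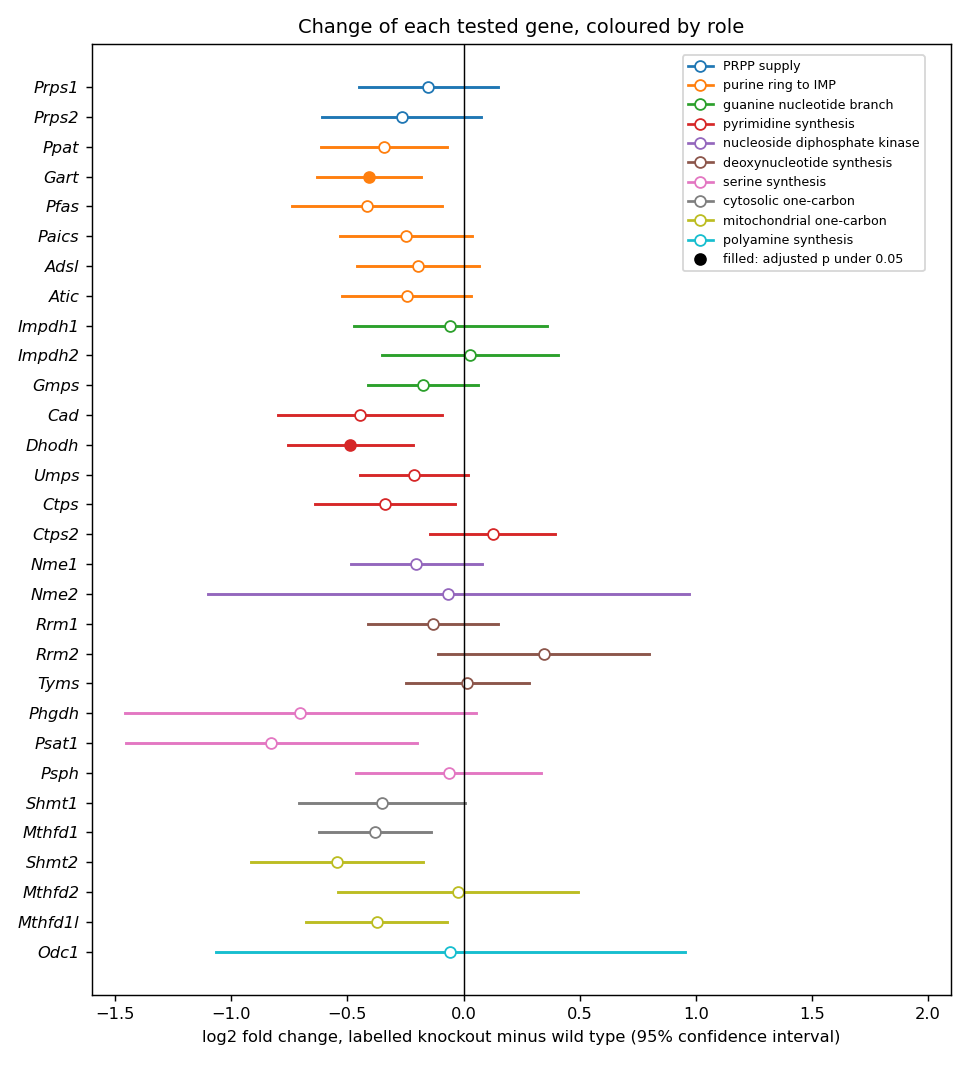
Log2 fold change of each of the 30 tested genes, labelled knockout minus wild type, with its 95% confidence interval, coloured by role. Gart and Dhodh (filled) passed the threshold, 26 points lie left of 0, and the widest intervals, of Nme2 and Odc1, span about 1 log2 unit to each side of 0.

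The 2 calls were not stable to the loss of single libraries. Gart did not pass in any fit that left out 1 library, with edgeR adjusted p from 0.059 (without knockout library 32) to 0.12 (without knockout library 40). Dhodh passed only without knockout library 32 (0.0453) and reached 0.128 without knockout library 40. With no filter on low counts 7 genes fell and with DESeq2 5 did. The additional genes were Pfas, Cad, Mthfd1, Shmt2 and Mthfd1l with no filter, and Psat1, Mthfd1 and Shmt2 with DESeq2. Calls over all genes rose in these settings too. Those called lower went from 498 to 836 with no filter, which also tested more genes, and to 1054 with DESeq2. The log2 fold changes ranged from -0.45 to -0.33 for Gart and from -0.56 to -0.41 for Dhodh when 1 library was left out.

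Purine synthesis from PRPP to inosine monophosphate (IMP) had 6 of 6 genes below 0, from -0.41 (Pfas) to -0.20 (Adsl), of which Gart fell and 5 did not pass. Gart encodes a trifunctional enzyme that uses formyl-folate to add the first one-carbon unit of the purine ring. It stood at 180.0, 171.1 and 175.1 CPM in wild-type libraries 25, 27 and 29, against 139.2, 139.9 and 117.4 CPM in knockout libraries 31, 32 and 40. The groups did not overlap, and the 3 wild-type values lay within a narrow band (175.4 ± 4.47 CPM, against 132.2 ± 12.8 CPM). Its log2 fold change was -0.41 (95% confidence interval -0.63 to -0.18, edgeR adjusted p = 0.0422). An annotated lncRNA, Gm15964, overlaps its 3' end on the other strand and had 1440 counts over the 6 libraries, against 26849 for Gart, and no source used here states how the counting used strand.

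Ppat, whose enzyme commits PRPP to the purine route, was at 81.4, 72.9 and 72.4 CPM in wild type against 64.9, 63.1 and 50.8 CPM in knockout, without overlap (log2 fold change -0.34, edgeR adjusted p = 0.112). Pfas, which encodes a later enzyme of the route, was at 101.8, 101.9 and 95.9 CPM against 81.4, 84.6 and 58.6 CPM. Its groups again did not overlap (-0.41, adjusted p = 0.106 by edgeR). In both genes knockout library 40 was the lowest of all 6.

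Paics and Ppat are transcribed head to head on chromosome 5, and their gene models overlap by 272 bases at the 5' ends. Paics, which encodes a bifunctional enzyme of the middle of the route, was at 232.3, 238.1 and 259.2 CPM in wild type against 239.7, 198.0 and 176.8 CPM in knockout, and these overlapped. Per length, Paics stood 4.55 ± 0.514 times as high as Ppat in wild type and 4.84 ± 0.393 times in knockout, so the ratio of the pair differed by less than its replicate spread. Adsl, the lyase that also acts in the branch to AMP, and Atic, which closes the ring, had log2 fold changes of -0.20 and -0.24 with overlapping groups (edgeR adjusted p = 0.314 and 0.239). Of the 5 of these genes with a promoter window, Paics and Atic had an E-box.

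PRPP supply and the guanine branch differed little. Prps1 and Prps2, the X-linked genes of PRPP synthetase, had log2 fold changes of -0.15 and -0.27 with overlapping groups. Prps1 has retained copies, of which Prps1l3 carried 916 to 1500 counts per library against 1001 to 1802 for Prps1, so the split of reads between them is uncertain. Impdh2, the proliferation-linked form of the rate-limiting enzyme of guanine nucleotide synthesis, was at 235.0 ± 45.3 CPM in wild type against 239.7 ± 37.5 CPM in knockout, a log2 fold change of 0.03 (95% interval -0.35 to 0.41), and its sign turned with upper-quartile or total-count scaling and without library 25, 27 or 31. The pseudogene Impdh2-ps had 1125 to 1892 counts per library, against 5002 to 8950 for Impdh2, with the same uncertainty. Impdh1, on chromosome 6, had -0.06. The median centred log2 level of 393 chromosome 6 genes was 0.26 and 0.23 in wild-type libraries 27 and 29, -0.14 in wild-type library 25 and -0.13 to -0.10 in knockout, while Impdh1 was highest in wild-type library 25 at 53.3 CPM and lowest in library 27 at 32.5 CPM. Gmps, which makes GMP, was at 85.6, 88.1 and 104.6 CPM against 78.5, 83.1 and 84.8 CPM, a small shift without overlap (-0.18, edgeR adjusted p = 0.317).

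**Figure D2:**
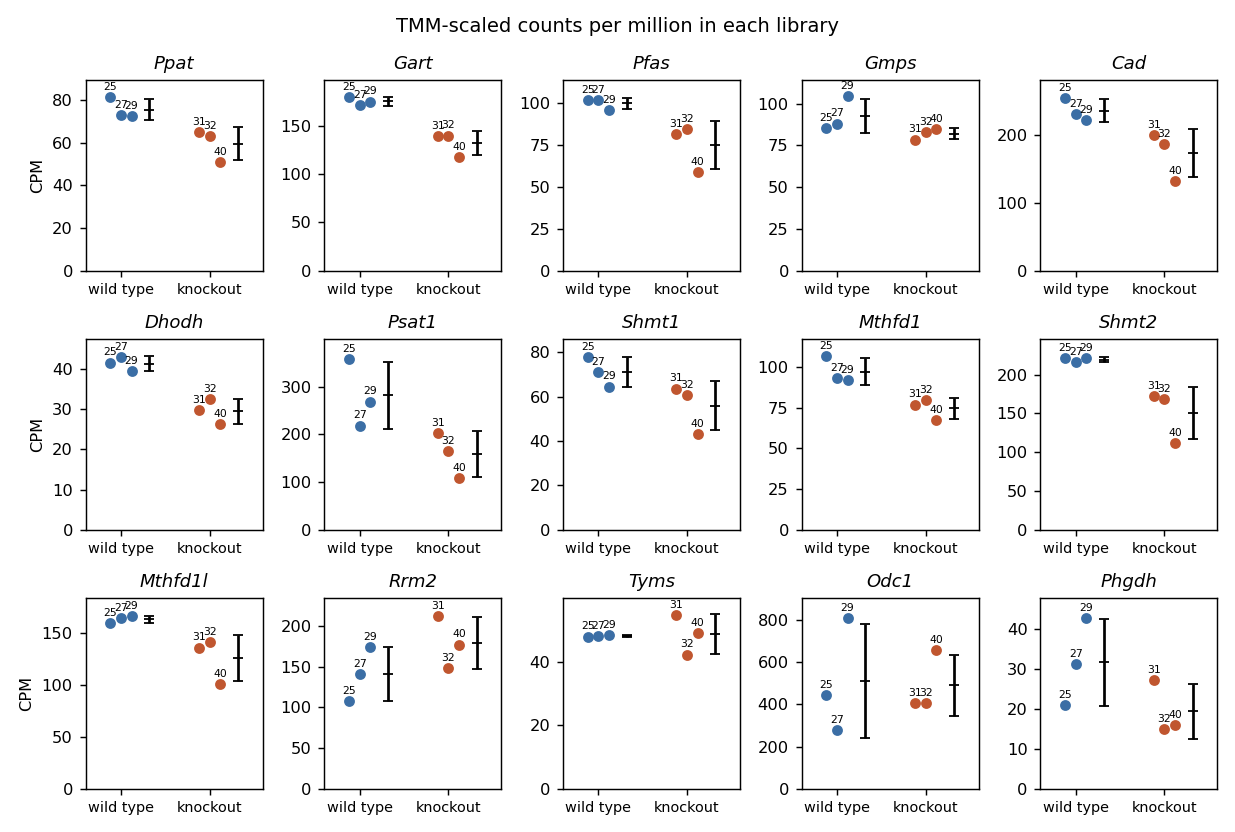
TMM-scaled CPM of 15 genes in each library (points, numbered by library) with the mean and SD of each group of 3. The first 11 panels are the genes whose knockout libraries all lie below the wild-type libraries, and in all of these but Gmps library 40 is the lowest point. The last 4 panels, Rrm2, Tyms, Odc1 and Phgdh, show overlapping groups.

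Pyrimidine synthesis held the other call. Dhodh encodes dihydroorotate dehydrogenase, the mitochondrial enzyme that links the route to the respiratory chain. It was at 41.7, 43.1 and 39.5 CPM in wild-type libraries 25, 27 and 29, against 29.8, 32.5 and 26.2 CPM in knockout libraries 31, 32 and 40. The groups lay clearly apart, and the mean went from 41.4 ± 1.80 to 29.5 ± 3.14 CPM (log2 fold change -0.49, 95% interval -0.76 to -0.22, edgeR adjusted p = 0.0429). Cad, the trifunctional enzyme that starts the route, was at 255.3, 231.3 and 223.0 CPM against 200.3, 187.5 and 132.8 CPM. These did not overlap, but the 3 knockout values were widely spread and the gene did not pass (-0.45, edgeR adjusted p = 0.111). Umps, which completes UMP, had -0.21 with overlapping groups (edgeR adjusted p = 0.217).

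CTP is made from UTP by either of a pair of synthases. Ctps was at 85.1, 84.1 and 70.8 CPM in wild type against 64.0, 71.9 and 53.8 CPM in knockout, and Ctps2, which lies on the X chromosome, was at 67.1, 73.4 and 80.7 CPM and 88.6, 70.3 and 82.5 CPM. Their log2 fold changes had opposite signs, -0.34 and 0.13, and neither passed. Per length, the ratio of Ctps to Ctps2 was 1.80, 1.63 and 1.25 in wild type and 1.03, 1.46 and 0.928 in knockout. These ratios overlapped, and an exact two-sided permutation test gave p = 0.2, where 3 against 3 libraries cannot go below 0.1.

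Serine synthesis held the genes with the lowest log2 fold changes, Psat1 and Phgdh, with wide spreads. Psat1, the aminotransferase of the middle step, was at 357.8, 218.2 and 268.5 CPM in wild-type libraries 25, 27 and 29, against 202.4, 165.2 and 108.3 CPM in knockout libraries 31, 32 and 40. The groups did not overlap, but wild-type library 27 and knockout library 31 lay close together. The log2 fold change was -0.83 (95% interval -1.45 to -0.20, edgeR adjusted p = 0.103). Its adjusted p was 0.0113 with DESeq2, 0.1 with limma-voom and 0.299 by edgeR with no filter on low counts. Phgdh, which encodes the dehydrogenase that opens the route, was at 20.9, 31.1 and 42.7 CPM against 27.2, 14.9 and 16.0 CPM, with overlap (-0.70, edgeR adjusted p = 0.212). Without wild-type library 29 the value for Phgdh was -0.42, nearer to 0 than the -0.54 of Shmt2 in that fit, and without wild-type libraries 27 and 29 it was -0.12. Psph, the phosphatase of the last step, was at 23.0 ± 1.30 and 22.0 ± 4.60 CPM (-0.06), and turned to 0.09 without knockout library 31. Wild-type library 25 was thus the lowest of its group in Phgdh and the highest in Psat1. The gene model of Psph overlaps that of Cct6a, on the other strand, by 452 bases. Cct6a had 42861 counts over the 6 libraries, against 3862 for Psph. The use of strand in the counting is not stated, and the part of this overlap in the values of Psph was not tested.

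In one-carbon metabolism 5 of 5 tested genes had a log2 fold change below 0 and none passed by edgeR, 3 of them with an unadjusted p under 0.05. Shmt2, the mitochondrial serine hydroxymethyltransferase that releases the one-carbon unit, was at 220.9, 215.9 and 221.2 CPM in wild type against 172.0, 168.1 and 111.1 CPM in knockout. The 3 wild-type values were nearly equal, and each knockout value lay below them (219.3 ± 2.94 against 150.4 ± 34.1 CPM, log2 fold change -0.54, 95% interval -0.91 to -0.17, edgeR adjusted p = 0.0753, and 0.0223 with DESeq2). Mthfd1l, the mitochondrial synthetase that releases formate to the cytosol, followed with 159.7, 164.1 and 166.5 CPM against 136.0, 141.3 and 100.8 CPM (-0.37, edgeR adjusted p = 0.115). Mthfd2, the mitochondrial dehydrogenase between them in the route, did not: it was at 48.3, 46.4 and 51.2 CPM in wild type against 66.8, 41.4 and 35.4 CPM in knockout. Its knockout libraries thus lay on both sides of the wild-type values (log2 fold change -0.02, 95% interval -0.54 to 0.49). The sign of this value turned without library 29, 32 or 40, and the gene lies on chromosome 6. Aldh1l2, which oxidises formyl-folate in mitochondria, had 0 to 10 counts per library and was not tested.

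In the cytosolic arm, Mthfd1, the trifunctional enzyme that makes formyl-folate for purines, was at 106.7, 93.1 and 91.9 CPM in wild type against 76.8, 79.7 and 67.4 CPM in knockout. The groups did not overlap, and its values were nearest to the threshold of those that did not pass (log2 fold change -0.38, 95% interval -0.62 to -0.14, edgeR adjusted p = 0.0622, and 0.0275 with DESeq2). Shmt1 was at 78.0, 71.2 and 64.5 CPM against 63.7, 60.7 and 43.2 CPM, just without overlap (-0.35, edgeR adjusted p = 0.194). Its gene model overlaps that of Smcr8, on the other strand, by 184 bases. Smcr8 had 16838 counts over the 6 libraries, against 11092 for Shmt1, and the part of this overlap was not tested. Per length, Shmt2 stood 3.54, 3.79 and 4.28 times as high as Shmt1 in wild type and 3.37, 3.46 and 3.21 times in knockout. These ratios did not overlap, and the exact permutation p was 0.1, the smallest the design allows, or 0.45 adjusted over the 9 gene pairs compared in this way.

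Genes of deoxynucleotide synthesis, which supply DNA replication, lay around 0. Rrm2, the S phase subunit of ribonucleotide reductase, was at 107.6, 140.6 and 173.9 CPM in wild type against 211.6, 147.9 and 177.0 CPM in knockout. The groups overlapped and the log2 fold change was 0.35 (95% interval -0.11 to 0.80, edgeR adjusted p = 0.301), the highest of the 30. Rrm1, the large subunit, was at 295.1 ± 28.8 and 269.3 ± 34.9 CPM (-0.13). Per length, the ratio of Rrm2 to Rrm1 was 1.53, 2.01 and 2.1 in wild type and 2.73, 2.26 and 2.93 in knockout, without overlap (exact permutation p = 0.1, 0.45 adjusted over the 9 pairs). Tyms, thymidylate synthase, was at 47.9, 48.0 and 48.4 CPM in wild type, the tightest group of any of the genes, and at 54.7, 42.2 and 49.0 CPM in knockout, a log2 fold change of 0.02 (95% interval -0.25 to 0.28). Its sign turned with upper-quartile and total-count scaling, with no filter, and without library 27 or 31.

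Replication and mitosis genes are given beside them. Of 24 S phase and replication genes 0 passed by edgeR (2 lower and 1 higher at an unadjusted p under 0.05), 1 by DESeq2 (Ccne2, higher) and 0 by limma-voom, with a median log2 fold change of -0.02. Ccne2, a cyclin of S phase entry, and Rpa2, a subunit of the single-strand binding complex, had 0.55 and -0.35 (edgeR adjusted p = 0.0574 and 0.118). Of 20 mitosis genes 0 passed by edgeR (1 higher at an unadjusted p under 0.05), 1 by DESeq2 (Mki67, higher) and 0 by limma-voom, with a median of 0.04. The proliferation marker Mki67 was at 515.0 ± 39.6 and 683.9 ± 98.7 CPM (0.41, edgeR adjusted p = 0.0881, and 0.0406 without knockout library 32). With no filter on low counts Ccne2 and Mki67 also passed, both higher (edgeR adjusted p = 0.0308 and 0.0337).

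Nucleoside diphosphate kinases turn diphosphates into triphosphates. Nme1 was at 43.7, 35.6 and 37.9 CPM in wild type against 35.7, 35.3 and 30.7 CPM in knockout, with overlap (-0.20, edgeR adjusted p = 0.329). Nme2 had only 20 to 51 counts per library (1.12 ± 0.50 and 1.06 ± 0.227 CPM), and its interval reached from -1.10 to 0.97. Nme1 and Nme2 lie next to each other on the minus strand of chromosome 11, and the annotated gene Gm20390 spans both on the same strand, with 1 count over the 6 libraries. In GENCODE M21, 48.9% of the exon bases of Nme2 and 12.5% of those of Nme1 are also exon of Gm20390. The part of this overlap in the low count of Nme2 was not tested.

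Odc1, ornithine decarboxylase, opens polyamine synthesis and is a textbook MYC target. It was the most abundant of the genes per length, at 149.7 ± 79.5 CPM per kilobase in wild type and 143.9 ± 42.2 in knockout, with the widest relative spread of the wild-type values of the 30 tested genes. Its CPM was 441.8, 279.3 and 808.0 in wild-type libraries 25, 27 and 29, against 406.7, 407.2 and 656.1 in knockout libraries 31, 32 and 40. The wild-type range enclosed all knockout values, and the sign of the difference turned without library 29, 31 or 32 and with limma-voom (log2 fold change -0.06, 95% interval -1.07 to 0.95, edgeR adjusted p = 0.948). A snoRNA gene, Gm22748, lies within Odc1 on the same strand, and its counts were 476, 236 and 1078 in wild type and 381, 453 and 497 in knockout, so that wild-type library 27 was lowest and 29 highest in both.

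**Figure D3:**
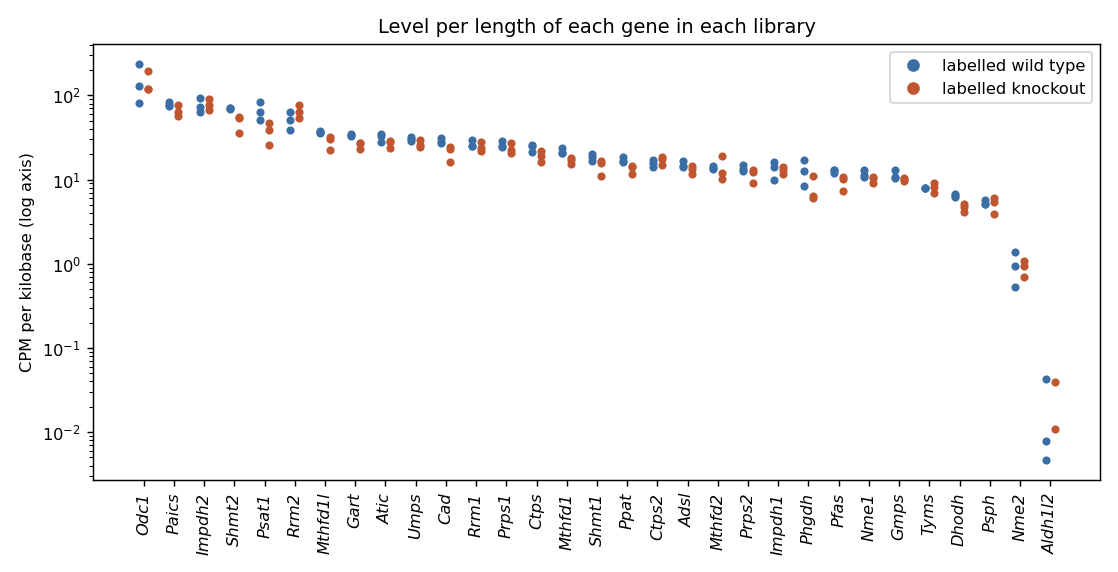
Level per length (CPM per kilobase of the deposited gene length, log axis) of each gene in each library, ordered by the wild-type mean. Odc1 stands highest, Nme2 and Aldh1l2 lie far below the rest, and a knockout library of Aldh1l2 with 0 counts is not drawn.

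Per length, the genes next to Odc1 in wild type were Paics (77.5 ± 4.50 CPM per kilobase), Impdh2 (76.4 ± 14.7), Shmt2 (70.5 ± 0.946), Psat1 (66.2 ± 16.6) and Rrm2 (50.8 ± 11.95). From Odc1 to Rrm2, the mean ± SD ranges of neighbours in this order overlapped. In knockout the order was Impdh2 (77.9 ± 12.2), Paics (65.3 ± 10.2), Rrm2 (64.5 ± 11.5), Shmt2 (48.4 ± 11.0) and Psat1 (37.3 ± 11.1). Psph and Dhodh were the lowest of the genes above Nme2, at 5.30 ± 0.300 and 6.55 ± 0.285 in wild type. The deposited length is that of the whole gene model, so a gene with long exons that these cells do not use reads lower.

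Libraries of a group did not carry these genes alike. The median of the 30 genes, each centred on its own mean over the 6 libraries, was 0.13, 0.07 and 0.17 (log2) in wild-type libraries 25, 27 and 29, against -0.03, -0.09 and -0.31 in knockout libraries 31, 32 and 40. Knockout library 40 was thus the lowest, and all 3 knockout libraries lay below the 3 wild-type libraries. Library 40 held the lowest knockout value in 22 of 30 genes, where it did so in 35.3% of all tested genes. It held the lowest value of all 6 libraries in 20 genes, and the share of all tested genes for this was not computed. Without library 40 the log2 fold change of Pfas moved from -0.41 to -0.26, that of Cad from -0.45 to -0.28, that of Shmt1 from -0.35 to -0.19 and that of Mthfd1l from -0.37 to -0.23. Paics, Atic, Adsl, Prps1, Prps2 and Nme1 then lay at -0.16 to -0.06. Without library 40 the median log2 fold change was -0.16, and without library 31 it was -0.31. The same libraries in the same order carried 1227, 3162 and 4040 CPM of mature neutrophil markers in wild type and 13435, 21982 and 30529 CPM in knockout, so library 40 was also highest in these. Their part in the lower values was not tested.

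**Figure D4:**
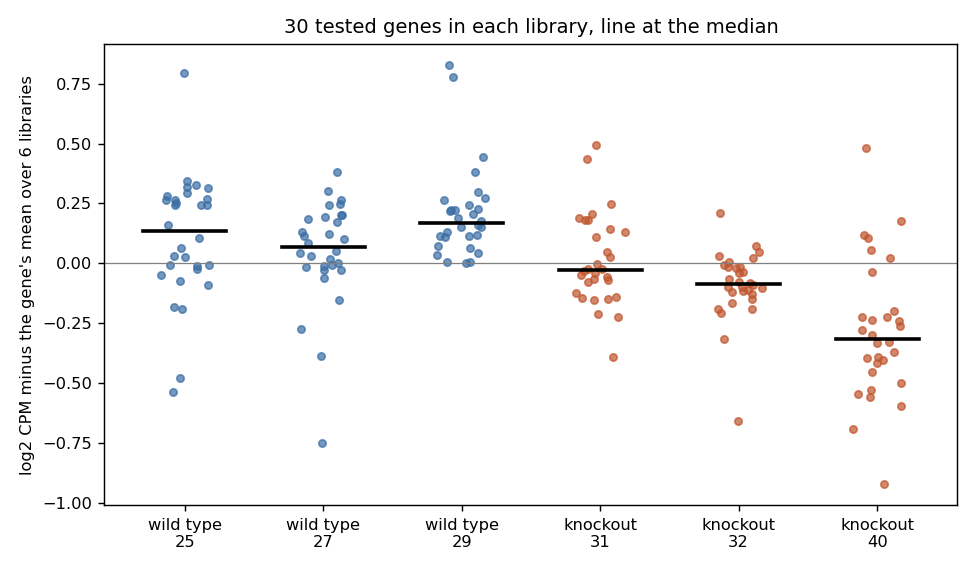
Log2 CPM of each of the 30 tested genes minus that gene's mean over the 6 libraries, by library, with a line at the median. The line lies at 0.17 in wild-type library 29 and at -0.31 in knockout library 40, and points of each library scatter on both sides of its line.

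As a sum, the 31 genes took up 0.374% to 0.436% of all counts in wild type and 0.282% to 0.349% in knockout. After TMM scaling the sums overlapped, at 3525 to 4355 CPM in wild type against 3108 to 3587 CPM in knockout. Odc1 alone made up 7.92% to 21.1% of them. Without it the sums were 3433, 3245 and 3547 CPM in wild type against 3180, 2890 and 2452 CPM in knockout, without overlap. Myc itself was at 257.2 ± 34.8 and 190.5 ± 33.8 CPM (log2 fold change -0.43, edgeR adjusted p = 0.115), and Atf4, a transcription factor of the amino acid response that is known to drive serine synthesis and mitochondrial one-carbon genes, was at 322.4 ± 59.1 and 537.9 ± 137.4 CPM (0.74, edgeR adjusted p = 0.0643). Neither passed in the main fit. Myc did with no filter on low counts (-0.45, edgeR adjusted p = 0.0397), and had 0.063 to 0.308 when 1 library was left out. The groups of Atf4 did not overlap, and its values under the alternatives were not examined. Atf4 was added after its values were seen.

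Other genes of the same pathways, 97 in the table and 86 of them tested, went both ways. By edgeR 6 fell (6.98%) and 5 rose, with a median log2 fold change of -0.06. Over all tested genes 3.12% fell and 5.45% rose, the shares to set beside this and each list that follows. In folate handling, Fpgs, which adds the glutamate tail that keeps folates in the cell, fell from 43.5 ± 0.661 to 27.4 ± 5.00 CPM (-0.67, edgeR adjusted p = 0.0306). Its libraries were at 43.1, 44.3 and 43.2 CPM in wild type against 26.4, 32.8 and 23.0 CPM in knockout. Of 13 tested genes of the methionine cycle and glycine cleavage 0 passed by edgeR, 2 by DESeq2 and 1 by limma-voom, and 2 were lower at an unadjusted edgeR p under 0.05. These were Gcsh (-0.68) and Ahcyl1 (-0.33), with edgeR adjusted p of 0.0545 and 0.0634, while Mat2a, the methionine adenosyltransferase on chromosome 6, had 0.03.

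Salvage and breakdown genes were mixed. Of 27 tested genes of nucleotide salvage and kinases, Dctd, the deaminase that turns dCMP into dUMP for thymidylate, fell by 0.85 on the log2 scale (edgeR adjusted p = 0.0339) and 26 did not pass. Of 19 tested genes on the breakdown list, the nucleotidase gene Nt5c3b fell from 13.9 ± 1.23 to 4.44 ± 0.629 CPM (-1.64, edgeR adjusted p = 0.00608). On the same list, Gmpr, GMP reductase, an enzyme of nucleotide interconversion, fell by 1.15 (edgeR adjusted p = 0.029). Ampd3, AMP deaminase of blood cells, rose by 0.88 (edgeR adjusted p = 0.0443).

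Of 14 polyamine genes beyond Odc1, 3 rose, 2 fell and 9 did not pass. Smox, spermine oxidase, rose from 20.9, 19.4 and 26.8 CPM to 64.4, 45.1 and 63.6 CPM (log2 fold change 1.37, edgeR adjusted p = 0.00739). Azin1, the antizyme inhibitor that protects ornithine decarboxylase, rose by 0.57 (edgeR adjusted p = 0.0498; it was named after its values were seen, as the call with the largest p of the list). Arg2, a mitochondrial arginase, rose by 4.18 from 0.179 ± 0.0416 CPM, with 4.39, 0.650 and 4.98 CPM in knockout libraries 31, 32 and 40. Paox, polyamine oxidase, and Sms, the X-linked spermine synthase, fell by 0.60 and 0.39 (edgeR adjusted p = 0.022 and 0.0459). Srm, spermidine synthase, did not pass (-0.22). Of these 11 called genes, Smox and Nt5c3b stayed past the threshold whichever single library was left out, with highest adjusted p of 0.0308 and 0.0245, both without knockout library 40. The other 9 did not, with highest values from 0.0749 (Arg2) to 0.152 (Azin1), each without knockout library 40 except Dctd, at 0.0884 without wild-type library 25.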

How the data were processed

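RNA was sequenced from 3 libraries per genotype label. The deposited table gives whole-number read counts per gene for the 6 libraries, with gene lengths and coordinates. The submitters' processing notes name Salmon, limma, GRCm38 and mm10, and the step that made the counts, its versions and its use of strand are named in no source used here. Genes were kept by the filterByExpr rule of edgeR (minimum count 10, minimum total 15), which left 15963 of 56748. TMM factors scaled the counts, and differences were tested by the robust quasi-likelihood test of edgeR 4.0.16 in R 4.3.3, with Benjamini-Hochberg adjustment over all tested genes and a threshold of 0.05. Signed values are knockout minus wild type. Values per kilobase divide CPM by the deposited gene length.

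Alternatives were other scaling, other filters, DESeq2 1.42.0, limma-voom 3.58.1 and leaving out libraries. Ratios of gene pairs were compared with exact two-sided permutation tests. The labels call the replicates independent, but nothing ties a library to an animal. The p-values therefore judge the difference of the groups against the variation between these libraries. No pair of replicates agreed within sampling noise. The genes and lists were chosen with earlier results of these data known. All 31 were described whatever their values; of each other list, up to 4 called genes of smallest p were named, or 2 where none was called, besides Rbm5, Myc, Mat2a and Srm, and some genes under this rule are not reported here. Promoter sequences are RefSeq's (GRCm38.p6). A planned comparison of protein sequences was not analysed here. The fit was also run on simulated counts with known changes. These counts did not carry the sex or cell marker differences of the libraries, so they do not bear on those.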

Additional observations from a re-analysis of the deposited data

How the results depend on the processing

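Of the results over many genes, the number of the 31 genes that rose was 0 under each alternative run. The number that fell was 2, and 7 with no filter, 5 with DESeq2, 0 to 1 when 1 library was left out and 0 without wild-type libraries 27 and 29, which leaves 1 wild-type library that is assumed to vary like the others. Their median log2 fold change stayed below 0, at -0.31 to -0.16 when 1 library was left out and at -0.35 with total counts alone, where the median of all genes moved from -0.01 to -0.13. All genes called higher and lower were 870 and 498, and 1553 and 1054 with DESeq2, 836 lower with no filter, 305 and 148 without wild-type libraries 27 and 29, and 245 to 787 higher and 102 to 440 lower when 1 library was left out. With total counts alone, 46.7% of calls were higher, against 63.6%. Other pathway genes called higher went from 5 to 2 with upper-quartile factors or total counts alone, 3 with limma-voom or without wild-type libraries 27 and 29, 11 with DESeq2 and 1 to 5 when 1 library was left out. Those called lower went from 6 to 13 with DESeq2, 0 without wild-type libraries 27 and 29 and 1 to 7 when 1 library was left out.

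Signs turned for 8 named genes near 0, and the cause was not tested. With upper-quartile factors Impdh2 was at -0.0158, Tyms at -0.0308 and Mat2a at -0.0117, and with total counts alone they were at -0.0853, -0.109 and -0.0842. Tyms was at -0.00234 with no filter. Nme2 and Odc1 were at 0.0385 and 0.0406 with limma-voom, and at 0.769 and 0.136 without wild-type libraries 27 and 29. When 1 library was left out, log2 fold changes ran from -0.108 to 0.186 for Impdh2, from -0.0773 to 0.108 for Tyms, from -0.144 to 0.37 for Mat2a, from -0.361 to 0.304 for Nme2, from -0.368 to 0.442 for Odc1, from -0.251 to 0.0976 for Impdh1, from -0.343 to 0.156 for Mthfd2 and from -0.198 to 0.093 for Psph. No paired analysis was possible because the groups share no library number.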
